A study of Homo sapiens with 2 samples.

Results

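The nuclear genes of mitochondrial complex I, named NDUF, were followed through an RNA immunoprecipitation sequencing (RIP-seq) experiment in Huh-7 cells. Their members were all entries of the deposited expression table whose symbol begins with NDUF, without the 13 pseudogenes whose symbols end in P and a number. This gave 51 of the 25556 genes listed. They comprised 11 NDUFS and NDUFV genes, 28 NDUFA, NDUFB and NDUFC genes, 8 NDUFAF genes and 4 further entries, namely the readthrough transcript NDUFC2-KCTD14 and the non-coding NDUFB2-AS1, NDUFV2-AS1 and NDUFA6-DT. Huh-7 is an established line from a human hepatocellular carcinoma, and its cells carried the label WT and received no treatment. The series held 2 libraries, 1 of RNA brought down with an antibody (the IP, from 90% of the lysate) and 1 of whole lysate RNA (the input, from 10%). The study's description gives SRSF7, a serine/arginine-rich splicing factor, as the precipitated protein. The labels of the samples instead name an antibody against YTHDF2, a reader of methylated adenosine in mRNA, and this contradiction was not resolved by the files. With 1 library per group there was no replicate check on any difference below and no test was possible.

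Complex I, NADH:ubiquinone oxidoreductase, is the entry point of the respiratory chain. It takes electrons from NADH, passes them through a flavin and a chain of iron-sulfur clusters to ubiquinone, and pumps protons across the inner mitochondrial membrane. A matrix arm holds the flavin, the clusters and the quinone site, and a membrane arm holds the proton pumps, whose central subunits are made in the mitochondrion itself. Conserved core subunits do the chemistry, accessory (supernumerary) subunits surround them, and assembly factors build the complex without staying in it. Liver cells use complex I to reoxidise the NADH made by fatty acid oxidation and the citric acid cycle.

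Many promoters of nuclear respiratory chain genes carry the palindromic site of NRF1, nuclear respiratory factor 1, and this site was looked up because it is a sequence feature that the choice by name did not use. RefSeq promoter windows (GRCh38.p14, 250 bases before to 50 after a listed start, up to 4 windows per member) were matched by symbol for 39 of the 47 subunit and assembly genes. The 8 letters GCATGCGC, searched on both strands (GCGCATGC on the other), were present in 8 of these 39 genes (20.5%), against 1006 of all 27305 genes with a window (3.68%). Counted per window, these were 8 of 51 windows (15.7%) against 3.05% of all windows. The 27305 genes were of every type and level, whereas the 39 are protein-coding. A share over protein-coding or expressed genes alone was not computed. The stretches below are the 5 in which the match and its 26 flanking bases lay wholly before the start; they are given 5′ to 3′ on the gene's strand, with the match in capitals. In NDUFB4 both orientations overlap and make up the full palindrome.
NDUFA5 (chr7:123557943-123558002, minus strand, 1 of its 3 windows): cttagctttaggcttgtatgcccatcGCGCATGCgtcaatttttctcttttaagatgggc
NDUFA6 (chr22:42090905-42090964, minus strand): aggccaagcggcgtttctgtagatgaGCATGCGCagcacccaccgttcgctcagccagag
NDUFS6 (chr5:1801335-1801394, plus strand): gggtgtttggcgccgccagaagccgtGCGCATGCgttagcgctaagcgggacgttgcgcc
NDUFB4 (chr3:120596151-120596212, plus strand): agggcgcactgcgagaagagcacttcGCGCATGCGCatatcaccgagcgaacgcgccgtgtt
NDUFS7 (chr19:1383808-1383867, plus strand): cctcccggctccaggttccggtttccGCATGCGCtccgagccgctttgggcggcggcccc

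The other 3 genes with the letters were NDUFA8, NDUFAF5 and NDUFAF4, whose matches touched or followed the start. The match of NDUFA6 was the same site, chr22:42090931-42090938, that lies at the start of NDUFA6-DT, which is transcribed away from it. These matches are a description of the letters and not shown to be bound sites. Genes with the letters covered much of the range of IP/input values given below, from NDUFA5 with a log2 ratio of -1.36 to NDUFS7 with 0.18. Their median log2 ratio was -0.50 (8 genes), against -0.32 for the 31 matched genes without the letters, which ran from -2.14 to 0.66. At least 2-fold lower in the IP were 1 of the 8 and 6 of the 31, against 8.25% of all genes compared below. A difference between these 2 sets was not tested.

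The deposited levels were RPKM, that is, reads scaled to the length of a gene's merged exons and to the reads assigned in the library, and whole reads could be recovered from them. The IP held 5897293 reads and the input 2782045. NDUF entries took 0.212% of the IP reads and 0.302% of the input reads. The 49 members with a mean of at least 1 RPKM over both libraries are compared on the scale of log2((IP + 1)/(input + 1)), which understates the change of low genes. A gene is called lower or higher past 2-fold on this scale. For a single gene the RPKM in the IP over that in the input is given, with an exact 95% interval computed from its reads. These intervals cover counting error only and take reads as independent. Of the counts from 1 to 20, 77.3% were even in the IP and 77.3% in the input. Such an excess arises when each read of a pair is counted, in which case the intervals are too narrow, and bounds with halved reads are given where they matter. Hepatocyte genes were abundant: ALB (albumin) had 655 RPKM in the IP and 944 RPKM in the input, and AFP (alpha-fetoprotein) 1613 and 2814 RPKM. Of the markers of other cells, PTPRC, PECAM1, CD3E and COL1A1 were at or under 3.76 RPKM in both libraries. HBB, the beta-globin gene, had 467 RPKM in the IP and 738 RPKM in the input; its part in the results was not tested.

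Complex I genes lay towards the input side. Of the 49 members compared, 11 (22.4%) were at least 2-fold lower in the IP, against 8.25% of all 14057 genes and 3.91% of the 9859 protein-coding genes compared. None of these members was at least 2-fold higher, against 11.3% of all genes and 8.05% of protein-coding genes. The median log2 ratio of the members was -0.46, against 0.14 for all genes. It stood at -0.79 against -0.16 with both libraries scaled to reads in protein-coding genes, and it turned to 0.70 against 1.21 with both scaled to the same RPKM sum. In each of these scalings the members' median lay below that of all genes. This order is no check on the result, since a scaling multiplies every IP value by the same factor and can hardly change it. The ratio was below 1 for 38 members and above 1 for 11 as deposited, and below 1 for 6 and above 1 for 43 after scaling to the same RPKM sum. The counting interval lay wholly below 1 for 28 of the 49, against 18.6% of all genes, and wholly above 1 for 3, against 31.4%.

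**Figure D1:**
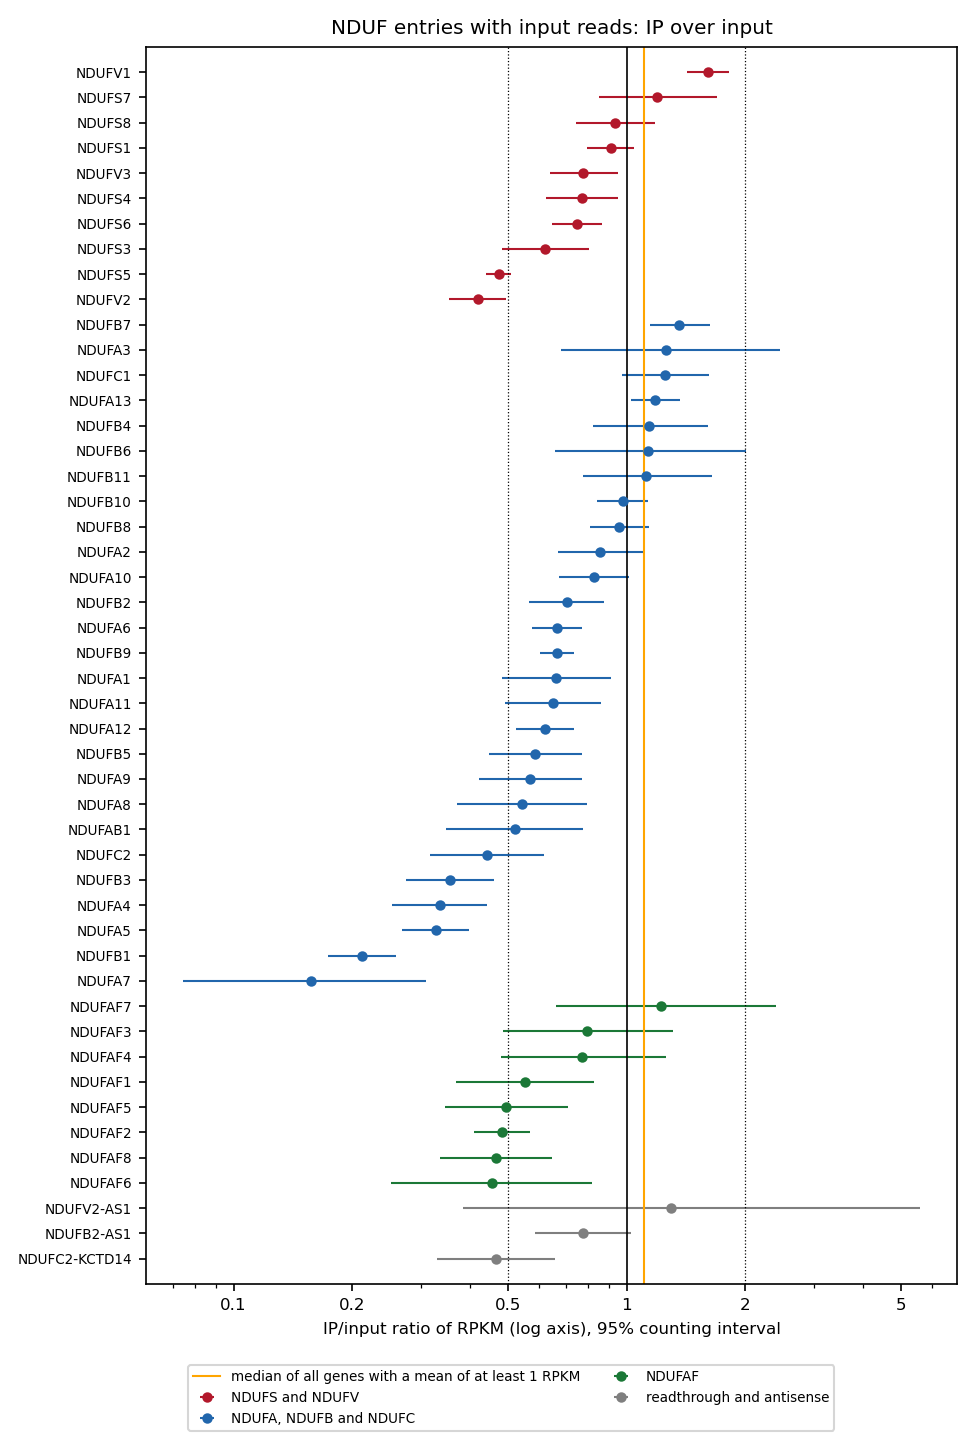
The IP/input ratio of RPKM (horizontal, log axis) for NDUF entries with input reads, coloured by class (1 entry is not drawn), with 95% counting intervals as bars. The solid black line marks a ratio of 1, dotted lines mark 2-fold, and the orange line is the median of all genes compared. Of all 49 entries, 38 were below 1 and 11 above on the deposited scale; after scaling to the same RPKM sum 6 were below and 43 above. NDUFV1 has the highest ratio with a narrow interval and NDUFA7 the lowest with a wide one.

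Of the 7 conserved core subunits encoded in the nucleus, 1 (NDUFV1) had a counting interval above 1 as deposited, 2 (NDUFV2 and NDUFS3) had one below 1, and 4 had one that included 1. Over all genes compared, 31.4% had an interval above 1 and 18.6% one below 1. By symbol, the 11 NDUFS and NDUFV genes had a median log2 ratio of -0.32 (0.86 after scaling to the same RPKM sum). Of these 11, 2 (18.2%) were at least 2-fold lower, against 8.25% of all genes. Names and roles differ here, since NDUFS4, NDUFS5, NDUFS6 and NDUFV3 are accessory subunits. The median of the 7 core subunits was -0.09, with 1 (14.3%) at least 2-fold lower.

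NDUFV1 encodes the flavoprotein that binds NADH and holds the flavin. It had 38.0 RPKM in the IP (1133 reads) and 23.6 RPKM in the input (332 reads), a ratio of 1.61 (1.42 to 1.82), the highest of all members with input reads. Its partner NDUFV2, an iron-sulfur protein next to the flavin, had 16.5 RPKM in the IP (263 reads) and 39.4 RPKM in the input (297 reads), a ratio of 0.418 (0.353 to 0.495). NDUFV1 was thus the highest and NDUFV2 the lowest of the core subunits, although both proteins sit side by side at the tip of the matrix arm. NDUFV2 shares 28.4% of its exon bases with the clone-named AP005263.1 on the same strand, which had 338 IP and 311 input reads, so its reads cannot be assigned to NDUFV2 alone.

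NDUFS1, the large iron-sulfur subunit behind that tip, had 8.55 RPKM in the IP (614 reads) and 9.39 RPKM in the input (318 reads), a ratio of 0.911 (0.794 to 1.05). NDUFS8, which carries a pair of iron-sulfur clusters, had 8.70 RPKM in the IP and 9.30 RPKM in the input, a ratio of 0.935 (0.746 to 1.18). For both subunits the interval includes 1 on the deposited scale. Of the 12174 exon bases of NDUFS1, 1411 overlap AC007383.2 on the opposite strand. NDUFS7, which holds the last cluster before the quinone, had 2.82 RPKM in the IP (124 reads) and 2.36 RPKM in the input (49 reads), a ratio of 1.19 (0.851 to 1.70). Of its 7456 exon bases, 3836 overlap AC005329.1 and AC005329.3 on the opposite strand. Whether counting was stranded is not stated, so its reads may belong to those genes in part. NDUFS3, the remaining core subunit of the quinone part, had 6.73 RPKM in the IP (145 reads) and 10.8 RPKM in the input (110 reads), a ratio of 0.622 (0.482 to 0.804). NDUFS3 shares 19.7% of its exon bases with PTPMT1, a mitochondrial phosphatase gene with 95 IP and 71 input reads.

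The accessory subunits that carry NDUFS or NDUFV names were lower in the IP on the deposited scale. NDUFS5, which sits on the intermembrane side of the membrane arm, was the most abundant member per length, with 447 RPKM in the IP (1444 reads) and 944 RPKM in the input (1439 reads). The ratio was 0.473 (0.440 to 0.510), or 1.13 after scaling to the same RPKM sum. NDUFS6, a zinc-binding subunit, had 93.9 RPKM in the IP and 126 RPKM in the input, a ratio of 0.747 (0.647 to 0.864). NDUFS4, whose loss causes Leigh syndrome, had 34.4 RPKM in the IP and 44.7 RPKM in the input, a ratio of 0.769 (0.623 to 0.952). NDUFV3 had 7.22 RPKM in the IP and 9.30 RPKM in the input, a ratio of 0.777 (0.637 to 0.949). The upper bounds of NDUFS4 and NDUFV3 rose to 1.04 and 1.03 when reads were halved to stand for pairs, while those of NDUFS5 and NDUFS6 stayed below 1.

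**Figure D2:**
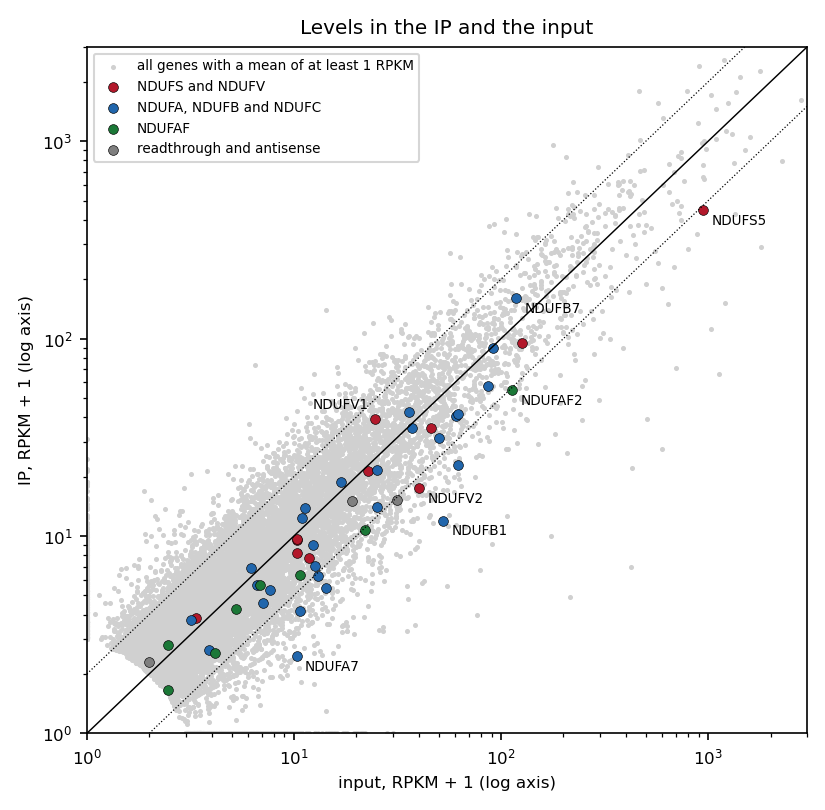
Level in the IP (vertical) against level in the input (horizontal), both as RPKM + 1 on log axes, for NDUF entries (coloured by class) and all genes compared (grey; a few above 3000 fall outside the axes). The solid line is equality on the deposited scale and dotted lines are 2-fold. NDUFS5 is the most abundant member, with 447 RPKM in the IP and 944 RPKM in the input, and lies just past the lower dotted line; NDUFB1 and NDUFA7 lie farthest below it.

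The NDUFA, NDUFB and NDUFC genes, which encode accessory subunits, held the lowest values of the family. Of 27 compared, 6 (22.2%) were at least 2-fold lower, against 8.25% of all genes. The median log2 ratio of the 27 was -0.56 (0.66 after scaling to the same RPKM sum). NDUFA and NDUFAB genes had a median of -0.58 (14 genes) and NDUFB genes one of -0.06 (11 genes). Regrouped by role, the 30 accessory subunits, without NDUFA4 and NDUFA4L2, had a median of -0.49, against -0.09 for the 7 core subunits. The core genes were also longer, with a median merged exon length of 4523 bases against 1835 bases. Across protein-coding genes the ratio rose with exon length (below), and the part of length in this gap was not tested. By position, the 16 subunits of the matrix arm had a median of -0.39 and the 20 of the membrane arm one of -0.34. NDUFAB1, the mitochondrial acyl carrier protein that sits in both arms, was at 0.519 times its input level (0.347 to 0.777). Within the matrix arm all 9 accessory subunits had a log2 ratio below 0 as deposited, against 5946 of all 14057 genes. The highest of these 9 was at -0.21, whereas the 7 core subunits ran from -1.21 to 0.66.

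The lowest ratios were those of NDUFA7 and NDUFB1. NDUFA7, a small subunit of the matrix arm, had 1.46 RPKM in the IP (12 reads) and 9.30 RPKM in the input (36 reads), a ratio of 0.157 (0.0745 to 0.309). It shares 32.5% of its exon bases with AC010323.1, which had 37 IP and 46 input reads. NDUFB1, among the smallest subunits of the membrane arm, had 10.9 RPKM in the IP (146 reads) and 51.5 RPKM in the input (324 reads). Its ratio of 0.213 (0.174 to 0.259) stayed below 1 in every scaling tried, and it shares no exon bases with another listed gene.

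The next lowest accessory genes lay between 0.327 and 0.441 times the input level as deposited. NDUFA5, which is attached to the quinone part of the matrix arm, had 3.18 RPKM in the IP (178 reads) and 9.72 RPKM in the input (257 reads), a ratio of 0.327 (0.268 to 0.397). NDUFA4, named as a complex I gene but since assigned to cytochrome c oxidase (complex IV), had 4.46 RPKM in the IP (91 reads) and 13.3 RPKM in the input (128 reads), a ratio of 0.335 (0.253 to 0.442). NDUFB3, a subunit with a single membrane helix, had 21.8 RPKM in the IP (108 reads) and 61.1 RPKM in the input (143 reads), a ratio of 0.356 (0.275 to 0.461). The ratios of NDUFA5, NDUFA4 and NDUFB3 also stayed below 1 in every scaling tried. Of the 841 exon bases of NDUFB3, 218 overlap FAM126B on the opposite strand, so its reads may belong to that gene in part. NDUFC2 of the membrane arm had 5.30 RPKM in the IP (72 reads) and 12.0 RPKM in the input (77 reads), a ratio of 0.441 (0.315 to 0.616), which became 1.05 after scaling to the same RPKM sum. The readthrough entry NDUFC2-KCTD14, with 69 IP and 70 input reads, shares 99.6% of its exon bases with NDUFC2 and KCTD14, and KCTD14 had 2 reads in each library. Both entries can thus hold the same reads and are not separate evidence.

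At the upper end, NDUFB7, a subunit on the intermembrane side held by disulfide bonds, had 159 RPKM in the IP (503 reads) and 117 RPKM in the input (174 reads). Its ratio was 1.36 (1.15 to 1.63), with bounds of 1.07 and 1.76 for halved reads, and 1.04 with scaling to protein-coding reads. NDUFA13, also known as the cell death regulator GRIM-19, had 41.5 RPKM in the IP (663 reads) and 35.0 RPKM in the input (264 reads), a ratio of 1.18 (1.03 to 1.37), which became 0.905 with scaling to protein-coding reads. With halved reads its bounds were 0.967 and 1.46 and included 1. The clone-named AC011448.1 overlaps it and had 658 IP and 262 input reads, nearly the same number. Other genes above 1 as deposited had intervals that include 1. NDUFC1, a small membrane arm subunit, was at 1.25 times its input level (0.972 to 1.62), NDUFA3 at 1.26 times (0.680 to 2.45), NDUFB4 at 1.14 times (0.821 to 1.61), NDUFB6 at 1.13 times (0.659 to 2.01) and NDUFB11 at 1.12 times (0.776 to 1.65). NDUFA3 rested on 40 IP and 15 input reads. Of the 2994 exon bases of NDUFC1, 525 overlap NAA15 on the opposite strand.

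The remaining accessory genes lay between these ends, from NDUFAB1 to NDUFB10. NDUFB9 and NDUFA6 were well covered, and their intervals lay below 1 as deposited. NDUFB9 had 40.6 RPKM in the IP (984 reads) and 61.1 RPKM in the input (698 reads), a ratio of 0.665 (0.603 to 0.734). Of its 4106 exon bases, 864 overlap MTSS1 and TATDN1 on the opposite strand. NDUFA6 had 56.6 RPKM in the IP (449 reads) and 85.0 RPKM in the input (318 reads), a ratio of 0.666 (0.576 to 0.771). NDUFB10, abundant at 88.9 RPKM in the IP and 90.9 RPKM in the input, was at 0.978 times (0.842 to 1.14). NDUFB8 was at 0.958 times (0.807 to 1.14), with 406 IP and 200 input reads that match the 400 and 200 of the overlapping AL133352.1. NDUFA4L2, a paralogue of NDUFA4 induced by hypoxia, had 6 IP reads and 0 input reads and was too low to compare, as was NDUFA6-DT with 4 and 0; a count of 0 allows up to 3 reads.

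**Figure D3:**
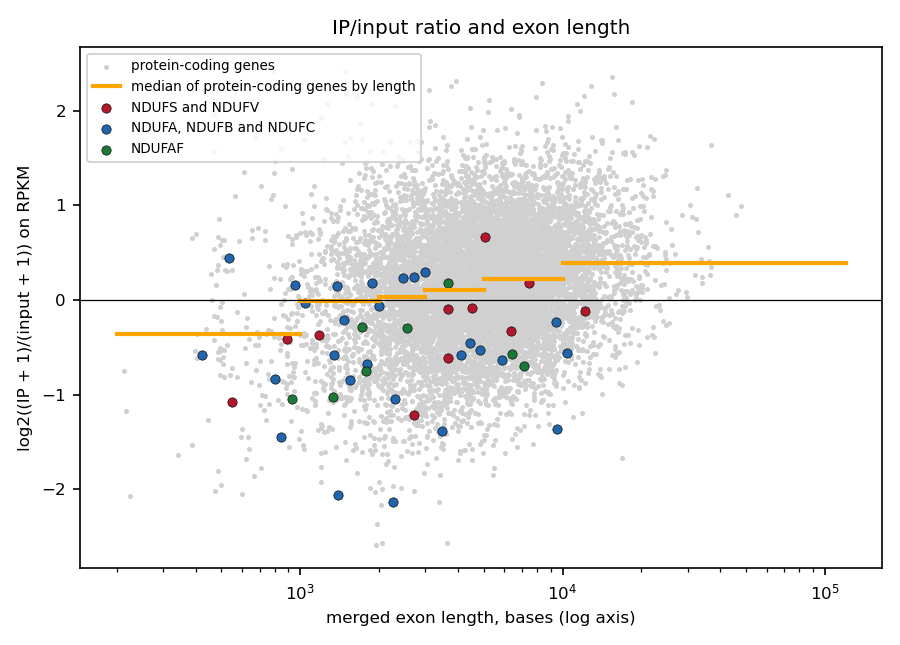
The log2 ratio of RPKM, with 1 added (vertical), against merged exon length in bases (horizontal, log axis) for NDUF subunit and assembly genes (coloured) and all protein-coding genes compared (grey). Orange bars are medians of protein-coding genes in 6 length ranges, from -0.36 below 1000 bases to 0.39 at 10000 bases or more. The longest range holds only 2 subunit and assembly genes, NDUFS1 and NDUFA9; scaling to the same RPKM sum moves all points up.

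Exon length differed between the members and other genes and also went with the ratio. The median merged exon length was 2302 bases for the 51 entries and 5045 bases for protein-coding genes. Across the 9859 protein-coding genes compared, Spearman's rho between exon length and log2 ratio was 0.21, and across the 46 NDUF subunit and assembly genes compared it was 0.15, given as a description since genes of 1 library pair are not independent. In each length range the NDUF genes, 2 to 13 per range, had a lower median than the protein-coding genes. Single NDUF genes spread widely within a range, for example from -1.45 to 0.44 below 1000 bases. The share of protein-coding genes at least 2-fold lower was smaller in each longer range. It was 16.5% below 1000 bases (3 of 8 NDUF genes), 10.1% from 1000 to 2000 bases (2 of 13), 7.56% from 2000 to 3000 bases (3 of 7), 4.29% from 3000 to 5000 bases (1 of 8), 1.63% from 5000 to 10000 bases (1 of 8) and 0.345% above that (0 of 2). Below 1000 bases the median log2 ratio was -0.71 (8 NDUF genes) against -0.36 (188 genes), and from 1000 to 2000 bases it was -0.37 (13) against -0.01 (765). From 2000 to 3000 bases it was -0.30 (7) against 0.03 (1283), from 3000 to 5000 bases -0.49 (8) against 0.11 (2659), and from 5000 to 10000 bases -0.45 (8) against 0.23 (3804). Of the NDUF genes only NDUFS1 and NDUFA9 were longer, with a median of -0.34 against 0.39 (1160). The part of transcript length in the values was not tested.

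The NDUFAF assembly factor genes had the lowest class median as deposited, by a small margin. The median log2 ratio of the 8 genes was -0.63 (0.28 after scaling to the same RPKM sum), against -0.56 for the NDUFA, NDUFB and NDUFC genes. With scaling to protein-coding reads the order turned, at -0.82 for the NDUFAF genes and -0.83 for the others. Of the 8 NDUFAF genes, 2 (25.0%) were at least 2-fold lower, against 8.25% of all genes. The NDUFAF genes are lowly expressed, with a median of 52.5 reads in the IP and 39 in the input, so intervals are wide. NDUFAF2, a paralogue of the subunit NDUFA12 that acts late in assembly, was the exception in depth. It had 53.8 RPKM in the IP (295 reads) and 112 RPKM in the input (289 reads), a ratio of 0.482 (0.408 to 0.568), or 1.15 after scaling to the same RPKM sum. NDUFA12 itself was at 0.619 times (0.522 to 0.734), with 320 IP and 244 input reads.

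NDUFAF8, the partner protein of NDUFAF5, had 9.75 RPKM in the IP (77 reads) and 20.9 RPKM in the input (78 reads), a ratio of 0.466 (0.335 to 0.646), or 1.11 after scaling to the same RPKM sum. NDUFAF5, which hydroxylates NDUFS7, had 1.56 RPKM in the IP (66 reads) and 3.16 RPKM in the input (63 reads), a ratio of 0.494 (0.345 to 0.709). NDUFAF6 had the lowest ratio of the class, 0.454 (0.251 to 0.817), from 25 IP and 26 input reads; it had 0.662 RPKM in the IP and 1.46 RPKM in the input and passed the minimum through its input value. With halved reads its bounds were 0.182 and 1.04 and included 1. NDUFAF1, a member of the assembly complex of the membrane arm, was at 0.550 times (0.368 to 0.827). The intervals of NDUFAF4 at 0.771 times (0.479 to 1.26) and of its binding partner NDUFAF3 at 0.792 times (0.486 to 1.31) include 1. So does that of NDUFAF7, a methyltransferase that acts in assembly, which was highest at 1.23 times (0.661 to 2.40) with 39 IP and 15 input reads.

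Assembly factors without an NDUF name ran from far below to above 1. Of 13 compared from a list of 14, 2 (15.4%) were at least 2-fold lower and 0 higher, against 8.25% and 11.3% of all genes. Their median log2 ratio was -0.24. TMEM126B, which works in the same assembly complex as NDUFAF1, had 2.11 RPKM in the IP (30 reads) and 11.3 RPKM in the input (76 reads), a ratio of 0.186 (0.118 to 0.288). Of other proteins in that complex, NDUFAF1 was at 0.550 times its input level (above), TIMMDC1 at 0.502 times (0.415 to 0.608), TMEM186 at 0.796 times (0.414 to 1.58), ECSIT at 1.07 times (0.768 to 1.50) and ACAD9 at 1.11 times (0.857 to 1.45). COA1, at 0.658 times (0.411 to 1.06), was below the minimum level. AIFM1, which helps to import small intermembrane proteins, was highest at 1.46 times (1.21 to 1.77).

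The rest of the nuclear-encoded chain had values of the same order. Complex II had a median log2 ratio of -0.56 over 4 genes, with SDHB and SDHD at least 2-fold lower and SDHA, the flavoprotein, at 1.32 times its input level (1.12 to 1.56). Complexes III to V had a median of -0.50 over 41 genes. Of these, 7 (17.1%) were at least 2-fold lower and 1 (2.44%) at least 2-fold higher, against 8.25% and 11.3% of all genes. No test of a difference between complex I and these complexes was possible with 1 library per group.

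**Figure D4:**
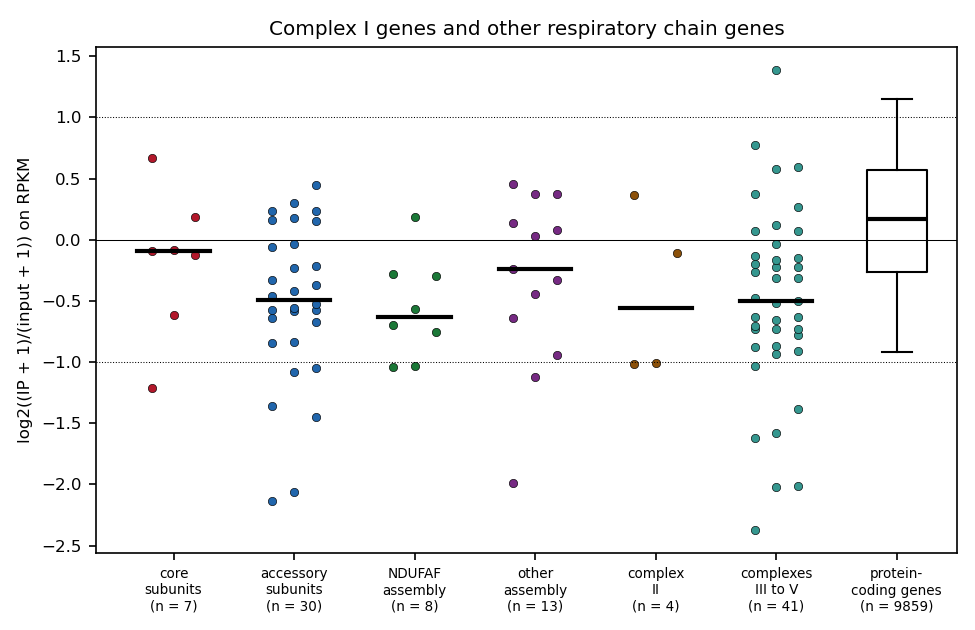
The log2 ratio of RPKM, with 1 added, for complex I genes by role, other assembly factors and other respiratory complexes; each point is a gene, and thick bars are medians. The box at the right gives the protein-coding genes compared (median, quartiles and percentiles 5 and 95), and dotted lines mark 2-fold. Core subunits have a median of -0.09, accessory subunits -0.49 and NDUFAF genes -0.63 as deposited, against 0.17 for protein-coding genes; the class medians by symbol turn positive after scaling to the same RPKM sum.

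Regions called by the authors as enriched in the IP were rare in complex I genes. Of the 7643 deposited peaks, 3 lay in 2 members, NDUFV1 and NDUFS1. These were 4.08% of the members compared, against 21.4% of all genes and 30.1% of protein-coding genes compared that carried at least 1 peak. The share of protein-coding genes with a peak also changed with exon length, being 3.19% below 1000 bases, 10.8% from 1000 to 2000, 17.9% from 2000 to 3000, 24.4% from 3000 to 5000, 35.4% from 5000 to 10000 and 56.7% at 10000 bases or more. NDUFV1 and NDUFS1, with 5057 and 12174 bases, fell into the last pair of these ranges. Folds and p-values of peaks are those of the authors' deposited table, and coordinates are as deposited.

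NDUFV1, the member with the highest ratio, carried 2 peaks on the plus strand in the same merged exon stretch, the fifth of 6. In the authors' deposited table the first, at chr11:67611463-67611965 (503 bases), had a fold of 2.56 and a p-value of 1.07e-07. The second, at chr11:67612131-67612206 (76 bases), had a fold of 2.21 and a p-value of 3.44e-06 in the authors' deposited table. These folds were 1.21 and 1.04 times the quotient of the library sizes, IP over input (2.12). A gap of 165 bases separated the peaks. Their centres lay at 85.5% and 94.5% of the merged exon length from the 5′ end, so both were near the 3′ end of the gene. Neither overlapped an exon of another listed gene on either strand.

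NDUFS1 carried 1 peak of 151 bases on the minus strand, at chr2:206119991-206120141. It lay in the last merged exon stretch, which is 9460 bases long, with its centre at 56.9% of the merged exon length. The authors' deposited table gives it a fold of 27.6, 13.0 times the same quotient, with a p-value of 0.0107 and a false discovery rate of 0.0385. The median fold over all deposited peaks was 2.71. What a fold of this kind measures is not known here, and the gene as a whole had a ratio of 0.911. The peak overlapped no exon of another listed gene. Of the other complex I genes, ACAD9 and FOXRED1 carried 1 peak each.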

How the data were processed

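RIP-seq libraries of Huh-7 cells, 1 IP and 1 input, were grouped by title. The submitters' processing notes list Trimmomatic, a read trimmer, and the aligner STAR 2.5.3a. Build, annotation, counting tool and peak caller were not given in the sources used here. Table spans of all 51 members overlapped their RefSeq genes on GRCh38.p14. The deposited expression values are RPKM, inferred because the products of value and length add up to equal totals for IP and input. All values were whole multiples of 1 read within 0.01 (100% in both), which gave the reads. The authors deposited for each peak a p-value, a fold (ratio), a false discovery rate and, as -log2 of that rate, a score; no replicates or pooling were involved. The table had 0 columns of other samples.

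Log2 ratios used a pseudocount of 1 and a minimum mean of 1 RPKM. Intervals of ratios are exact (Clopper-Pearson based) at 95%. Peaks went to the same-strand gene whose exons they covered most, by 1 base or more. Gene type came from RefSeq (19810 symbols matched, 5746 not). Stranded counting is not stated; 17 of the 47 subunit and assembly genes overlap exons on the other strand and 11 on the same strand, where reads may belong to either gene. Calculations were tested on simulated reads drawn independently, which does not cover the case where both reads of a pair are counted. Named genes were all NDUFS and NDUFV genes, members with peaks, the 6 lowest and 6 highest NDUFA, NDUFB and NDUFC genes and the 2 lowest and 2 highest NDUFAF genes by ratio; others named (NDUFAF2, NDUFAF5, NDUFAF1, NDUFAF4, NDUFAB1, NDUFA6, NDUFA12, NDUFB8, NDUFB9, NDUFB10, NDUFB11, and genes of the pathway lists), and the promoter motif, were chosen after values were seen. Of the members, 1 is counted in the totals but not reported here by name. Members and lists were chosen with earlier results of these data known. Other pseudocounts, filters and scalings were tried. Versions were scipy 1.17.1, pandas 2.3.3, numpy 2.4.6 and matplotlib 3.10.9 under Python 3.11.15.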

Additional observations from a re-analysis of the deposited data

How the results depend on the processing

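The medians of all members and of each class kept their sign without the filter and with a minimum mean of 5. They also kept it with classes by role and without members that overlap other genes. The sign was unchanged with a pseudocount of 0.1, but a pseudocount cannot move a gene's ratio across 1. Centring subtracts 0.14, the median log2 ratio of all genes, and the protein-coding scale multiplies every IP value by 0.764. Each can only lower a log2 ratio, so negative medians had to stay negative, and neither is a check on the sign. Scaling to protein-coding reads took the median of all members from -0.46 to -0.79. Scaling to the same RPKM sum turned the medians to 0.70 (all members), 0.86 (NDUFS and NDUFV), 0.66 (NDUFA, NDUFB and NDUFC) and 0.28 (NDUFAF). It left 6 members below 1 instead of 38, where 5946 of all 14057 genes were below 1 as deposited. Of the 11 members at least 2-fold lower as deposited, it turned NDUFS5 to 1.13, NDUFAF2 to 1.15, NDUFAF8 to 1.11, NDUFC2 to 1.05 and NDUFC2-KCTD14 to 1.11; this scaling multiplies every IP value by 2.39. Under it 1 member was at least 2-fold lower and 17 at least 2-fold higher, while 3.20% and 60.6% of all genes were. Without members that share exon bases on the same strand, 7 of 37 were at least 2-fold lower (8.22% of all genes), with fewer genes compared. With halved reads, a setting chosen after seeing the data like the removal of genes that overlap on the opposite strand or of the 4 further entries, 24 members instead of 28 had intervals below 1 (12.8% of all genes) and 2 instead of 3 above (23.8% of all genes). The number of peaks stayed at 3 with a false discovery rate of at most 0.05 and with at least 50% of the peak in exons. Among all 2-fold calls, higher genes made up 57.9% as deposited, 44.6% after centring and 29.9% when protein-coding reads set the scale; with the same RPKM sum 8523 genes were higher and 450 lower. No paired analysis was possible because each group has 1 library. Depth limits the genes with few reads, such as NDUFA7, NDUFA3 and NDUFAF7.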
